A study of Mus musculus with 6 samples.

Results

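The integrated stress response regulators described here are 10 genes of eIF2 alpha signaling: the kinases Eif2ak3 and Eif2ak4, the transcription factors Atf4, Atf5, Ddit3 and Cebpb, the chromatin cofactor Nupr1, and the feedback and translation genes Trib3, Ppp1r15a and Eif4ebp1. They were chosen by name, and each was measured by every probe set of the array whose annotation gives that gene alone, which came to 21 of 45037 probe sets. Whole-liver RNA of 6 male mice aged 12 weeks was compared, each on an Affymetrix mouse expression array of its own. All 6 were FRG mice on a C57Bl/6J background, which carry Fah-/-, Rag2-/- and Il2rg-/-, so controls and withdrawn mice alike lacked the last enzyme of tyrosine breakdown and mature lymphocytes, and no mouse with a working Fah was measured. The 3 FRG+NTBC mice drank 16 mg/L NTBC, the drug that blocks the upstream enzyme Hpd, throughout, and the 3 FRG-7dNTBC mice went without it for the 7 days from the age of 11 weeks. Every mouse was kept on a chow low in tyrosine and phenylalanine.

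The integrated stress response is the path by which cells slow protein synthesis under stress. Kinases that sense unfolded protein in the endoplasmic reticulum (PERK, encoded by Eif2ak3), uncharged tRNA (GCN2, Eif2ak4), heme shortage (Eif2ak1) or double-stranded RNA (Eif2ak2) phosphorylate eIF2 alpha, which lowers translation of most mRNAs while that of Atf4, Atf5, Ddit3 and Ppp1r15a goes on through upstream open reading frames. The ATF4 protein then switches on genes of amino acid supply and stress. Because much of this control acts on phosphorylation and translation, arrays of mRNA see only its transcriptional side.

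Correlations of log2 values between arrays were 0.988 to 0.993 among treated mice, 0.98 to 0.99 among withdrawn mice and 0.93 to 0.955 across groups. The deleted gene Rag2 read 16.4 to 22.5 over the 6 arrays, and intensities near that level cannot be told from absence. Among genes of the lacking lymphocytes, Cd3g (7.67 to 10.5), Ms4a1 (14.5 to 22.8) and Cd79a (20.7 to 28.4) read low. Others read higher, Cd4 at 49.2 to 61.8, Cd3e at 53.8 to 67.2 and Cd8a at 90.5 to 108. Probe sets differ in this level, so intensities in that range do not by themselves show that a gene was expressed. Of the fixed marker lists, macrophage markers were higher for 3 of 7 genes (summed intensity 1648 to 2479 with NTBC, 1644 to 4689 without), endothelial markers for 2 of 6 (1119 to 1670, and 1778 to 2191) and stellate cell markers for 1 of 6 (1153 to 1424, and 638 to 2860). Cholangiocyte markers (0 of 5; 198 to 237, and 173 to 248), neutrophil markers (0 of 4; 112 to 168, and 118 to 211) and T and B cell markers (0 of 6; 265 to 287, and 258 to 264) gave no call in either direction. Among 5 hepatocyte markers none was higher and 2 were lower, Tat and Cps1 (86670 to 89040, and 81250 to 83380). These counts stand beside 17.4% higher and 12.7% lower of all 18193 genes. Summed intensities of the macrophage and stellate cell markers overlapped between the groups. No marker was at 0, and the part of cell composition in the results was not tested. In whole liver, fewer cells of a type and less RNA per cell cannot be told apart.

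Changes of the regulators reached at most 2.05-fold, and most of their probe sets did not pass. Of the 21 probe sets, 5 rose in FRG-7dNTBC livers at a limma adjusted p under 0.05, 1 fell and 15 did not pass, against 14.0% of all probe sets higher and 13.9% lower. At least 2-fold changes numbered 2 among the higher and 0 among the lower, where 7.61% and 5.12% of all probe sets met those limits. The values of the groups did not overlap at 6 probe sets on the higher side and 2 on the lower, against 18.6% and 25.5% of all probe sets. With each gene at its brightest probe set by mean log2 intensity, 4 of 10 regulators were higher (Eif2ak3, Atf4, Ddit3 and Ppp1r15a) and none lower, beside 17.4% higher and 12.7% lower of 18193 genes. For the count of 0 lower genes, 1 (Trib3) had an unadjusted p under 0.05 from limma. The median log2 fold change was 0.17 over the 10 genes and -0.05 over all genes. Scaling every array to the same 75th percentile moved the median of all probe sets from -0.08 to -0.21, and the split of the 21 probe sets from 5 higher and 1 lower to 3 higher and 2 lower. With 3 mice per group, an exact permutation test of 1 probe set cannot go below p = 0.1.

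**Figure D1:**
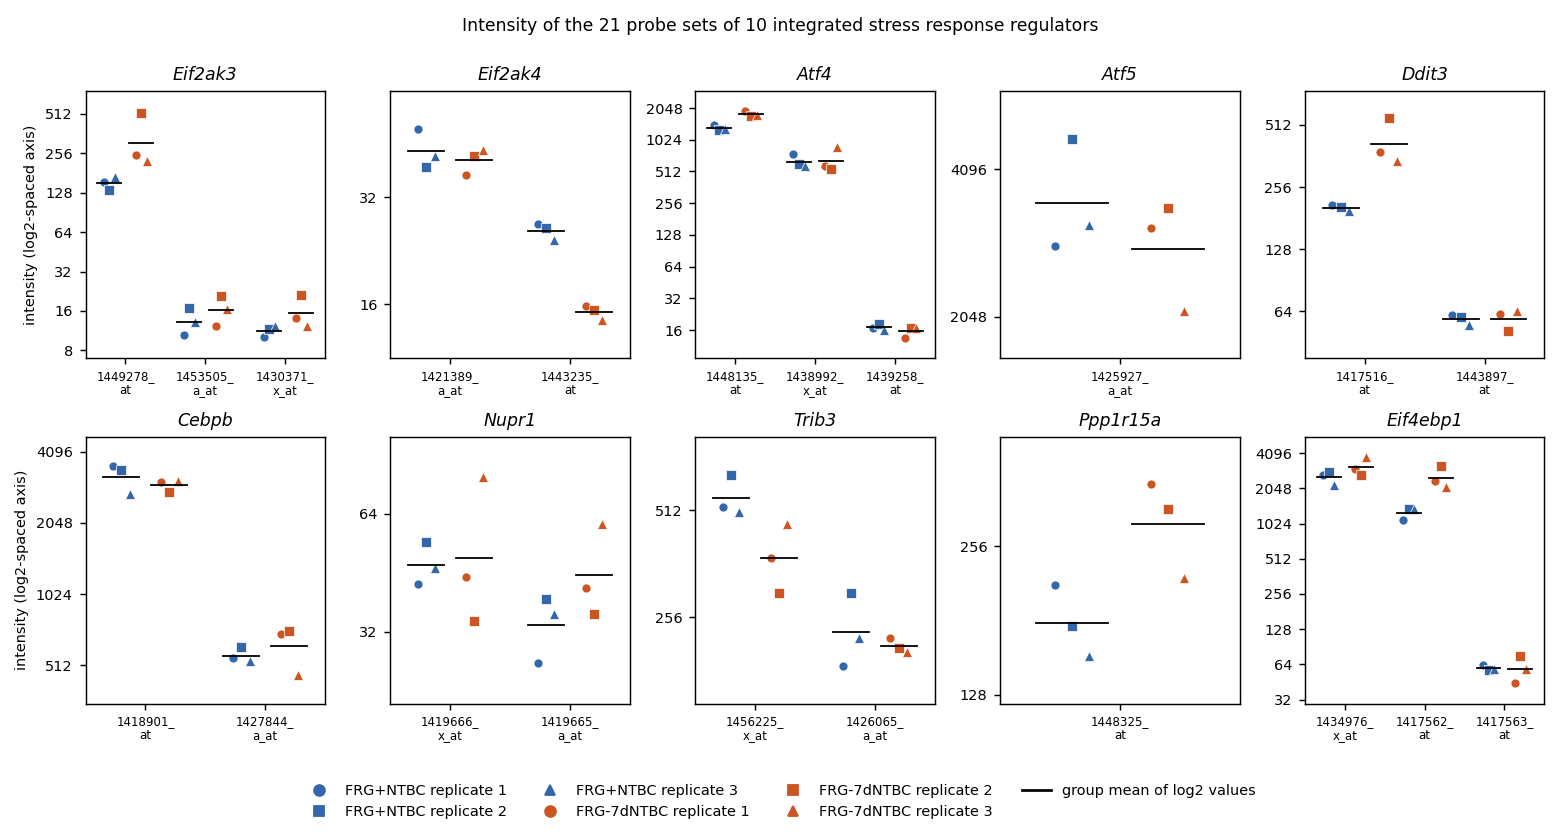
Intensity (vertical axis, log2-spaced) of each of the 21 probe sets (horizontal axis, 1 panel per gene) in the 3 FRG+NTBC mice (blue) and the 3 FRG-7dNTBC mice (orange), with the replicate as the symbol and a black line at the group mean of log2 values. The orange points lie above all blue ones at the brightest probe sets of Eif2ak3, Atf4, Ddit3 and Ppp1r15a at 1417562_at of Eif4ebp1 and, by a small margin, at 1430371_x_at of Eif2ak3, and below them at 1456225_x_at of Trib3 and 1443235_at of Eif2ak4.

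**Figure D2:**
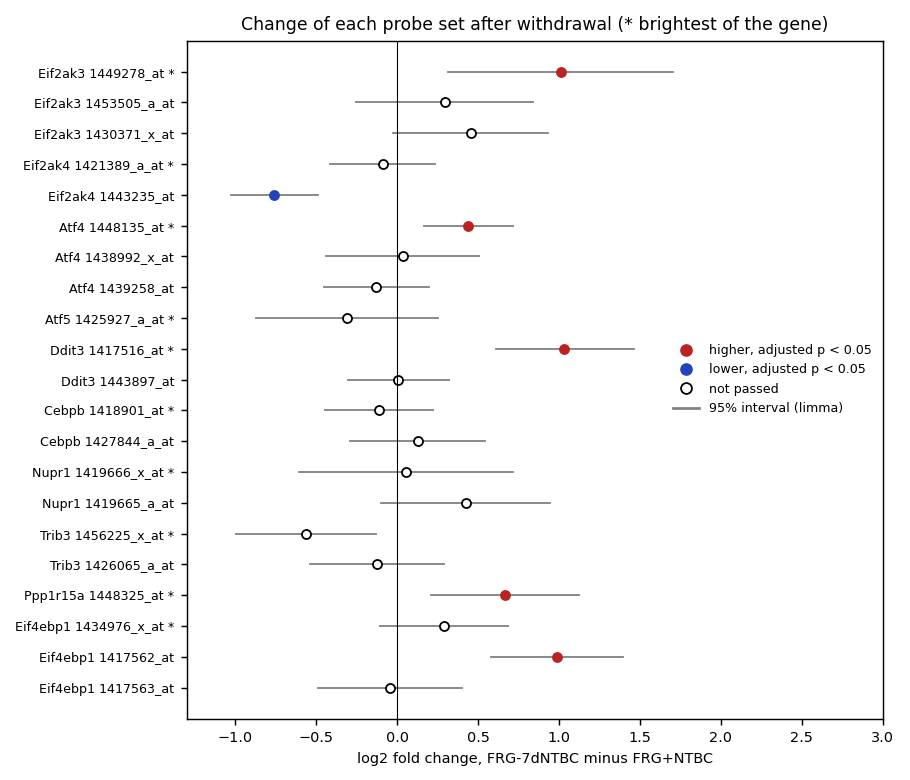
Log2 fold change (horizontal axis, FRG-7dNTBC minus FRG+NTBC) of the 21 probe sets with the 95% interval from limma, the brightest of each gene marked with a star. The 5 red points passed on the higher side and the blue point, 1443235_at of Eif2ak4 at -0.76, on the lower side.

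Among the kinases, Eif2ak3 was higher after withdrawal at its brightest probe set and Eif2ak4 was not. Eif2ak3 (chr6:70844484-70905241 in GRCm38.p6) encodes PERK, the eIF2 alpha kinase of the endoplasmic reticulum. Its brightest probe set, 1449278_at, read 155, 134 and 170 in the FRG+NTBC mice and 247, 523 and 224 in the FRG-7dNTBC mice. All withdrawn mice lay above all treated ones, with replicate 2 far above the other two. The log2 fold change was 1.01 (SE 0.30, limma adjusted p = 0.0394), and it was 0.63 without FRG-7dNTBC replicate 2, where it still passed (limma adjusted p = 0.023). This call was lost without any 1 of the 3 FRG+NTBC mice, without FRG-7dNTBC replicate 1, after a further quantile normalization, with the replicate number as a block and without moderation of the variances, at limma adjusted p-values of 0.0563 to 0.17. Averaged over its 3 probe sets, Eif2ak3 stood at 0.59 (limma adjusted p = 0.078). Both other probe sets of Eif2ak3 read 10.2 to 21.3 on every array, no higher than Rag2, and did not pass, although the groups did not overlap at 1430371_x_at.

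Eif2ak4 (chr2:118388583-118475234) encodes GCN2, the kinase that senses amino acid shortage through uncharged tRNA. The probe set 1421389_a_at read 49.9, 38.8 and 41.9 with NTBC and 37.0, 41.9 and 43.4 without. The groups overlapped, and the log2 fold change was -0.09 with a 95% interval from -0.42 to 0.24 (limma adjusted p = 0.677). The dimmer probe set 1443235_at read 26.9, 26.2 and 24.3 with NTBC and 15.8, 15.4 and 14.4 without, a log2 fold change of -0.76 (SE 0.12, limma adjusted p = 0.00228). Its withdrawn values lie below those of Rag2, so the size of that fall is not exact. Between these probe sets the log2 ratio went from 0.75 ± 0.16 to 1.42 ± 0.18 (SD, n = 3 mice per group) without overlap (exact permutation p = 0.1, two-sided, the smallest possible). With 3 mice per group that test cannot show that the probe sets changed unequally. Both also read at levels seen for genes of the lacking lymphocytes. Averaged over both, Eif2ak4 stood at a log2 fold change of -0.425 and passed on the lower side (limma adjusted p = 0.0173).

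Of the transcription factors, Atf4 and Ddit3 were higher at their brightest probe sets, while Atf5, Cebpb and Nupr1 did not pass. Atf4 (chr15:80255184-80257545) encodes the main effector of the response. At 1448135_at it read 1428, 1278 and 1287 in FRG+NTBC mice and 1924, 1734 and 1758 in FRG-7dNTBC mice. Each withdrawn mouse exceeded each treated mouse, by a narrow and even margin, and the rise was 1.36-fold (log2 fold change 0.44, SE 0.12, limma adjusted p = 0.0281). The other bright probe set, 1438992_x_at, whose suffix marks probes shared with other sequences, read 744, 600 and 572 with NTBC and 580, 541 and 873 without. There only FRG-7dNTBC replicate 3 was above the treated mice, and the log2 fold change was 0.03 (95% interval -0.44 to 0.50, limma adjusted p = 0.921). A dim Atf4 probe set, 1439258_at, stayed at 13.4 to 18.4 on all arrays. The call of Atf4 was lost after scaling to one 75th percentile (limma adjusted p = 0.102) and after a further quantile normalization (0.164), with a trend and robust moderation (0.0538), with the replicate block (0.0543), and without FRG+NTBC replicate 2, FRG+NTBC replicate 3 or FRG-7dNTBC replicate 1 (0.0782 to 0.1). Averaged over its 3 probe sets, Atf4 stood at a log2 fold change of 0.11 (limma adjusted p = 0.494).

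Ddit3 (chr10:127290793-127296291), which encodes CHOP, a factor of prolonged stress and cell death, had the smallest adjusted p of the transcription factors among the members. Its intensity at 1417516_at was 209, 205 and 195 with NTBC and 380, 553 and 343 without. The treated mice lay within a few percent of each other and every withdrawn mouse was far above them, FRG-7dNTBC replicate 2 most of all. The rise was 2.05-fold (log2 fold change 1.03, SE 0.19, limma adjusted p = 0.00458) and passed without any 1 mouse, with log2 fold changes of 0.83 to 1.17. It missed the threshold only without moderation (adjusted p = 0.0533). The other Ddit3 probe set, 1443897_at, read 61.4, 60.1 and 55.0, and 62.2, 51.3 and 64.5, a log2 fold change of 0.01 (95% interval -0.31 to 0.32, limma adjusted p = 0.976). Genes of the lacking lymphocytes read at such levels too, so this probe set cannot show that Ddit3 was unchanged. Within arrays, the log2 ratio of the brighter over the dimmer went from 1.79 ± 0.04 to 2.82 ± 0.54 (SD, n = 3 mice per group, exact permutation p = 0.1, two-sided).

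Atf5 (chr7:44812256-44816658), a relative of Atf4 that is strongly expressed in liver, had 1 probe set with 2856, 4738 and 3148 in FRG+NTBC mice and 3104, 3421 and 2106 in FRG-7dNTBC mice. FRG+NTBC replicate 2 was the highest of all and FRG-7dNTBC replicate 3 the lowest, and the log2 fold change was -0.31 (95% interval -0.87 to 0.25, limma adjusted p = 0.388). Cebpb (chr2:167688915-167690432), a liver factor that pairs with ATF4 and CHOP, read 3566, 3421 and 2702 with NTBC and 3040, 2778 and 3083 without at 1418901_at. Its log2 fold changes were -0.11 there (95% interval -0.45 to 0.22, limma adjusted p = 0.6) and 0.13 at 1427844_a_at (-0.29 to 0.55, adjusted p = 0.646), with overlapping groups at both. For Nupr1 (chr7:126623246-126625470), a small stress-induced cofactor of transcription, 1419666_x_at gave 42.2, 54.2 and 46.5 with NTBC and 44.0, 34.1 and 79.3 without. FRG-7dNTBC replicate 2 was the lowest and replicate 3 the highest of the 6 mice, so that the mean moved by 0.05 on the log2 scale with an interval from -0.61 to 0.71 (limma adjusted p = 0.91). At 1419665_a_at the change was 0.42 (95% interval -0.10 to 0.94, limma adjusted p = 0.206), with FRG-7dNTBC replicate 3 again the highest. Both Nupr1 probe sets read at levels seen for genes of the lacking lymphocytes, so neither can show that Nupr1 was unchanged.

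The feedback genes moved in different ways. Ppp1r15a (chr7:45522917-45526268) encodes GADD34, which brings a phosphatase to eIF2 alpha and so reverses the block on translation. Its probe set 1448325_at read 214, 176 and 153 in FRG+NTBC mice and 343, 304 and 221 in FRG-7dNTBC mice. The groups were separate but close, since FRG-7dNTBC replicate 3 stood just above FRG+NTBC replicate 1. The log2 fold change was 0.67 (SE 0.20, limma adjusted p = 0.0387). Its call was lost after both other scalings (adjusted p = 0.0653 and 0.105 from limma), without moderation (0.14), and without FRG+NTBC replicate 2, FRG+NTBC replicate 3, FRG-7dNTBC replicate 1 or FRG-7dNTBC replicate 2 (0.0871 to 0.132).

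Trib3 (chr2:152337425-152344060), a pseudokinase that ATF4 and CHOP switch on and that restrains both, did not rise at either probe set. At 1456225_x_at, whose suffix marks probes shared with other sequences, the values were 523, 644 and 505 with NTBC and 375, 300 and 468 without. Every withdrawn mouse was below every treated one, and the log2 fold change was -0.56 (SE 0.19, 95% interval -0.99 to -0.13), just short of the threshold (limma adjusted p = 0.0569). It passed on the lower side after scaling to one 75th percentile (-0.69, adjusted p = 0.0292), after a further quantile normalization (-0.75, 0.0287), among the brighter probe sets alone (0.0481) and without FRG-7dNTBC replicate 3 (-0.72, 0.0167). The other probe set, 1426065_a_at, read 187, 300 and 224, and 224, 211 and 205, with a log2 fold change of -0.13 (95% interval -0.54 to 0.29, limma adjusted p = 0.642). It alone stood for Trib3 with probe sets of shared sequence left out, and it did not pass (limma adjusted p = 0.643).

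Eif4ebp1 (chr8:27260327-27275656) encodes 4E-BP1, an ATF4 target that holds back cap-dependent translation by binding eIF4E. Its 3 probe sets gave 3 different pictures. The probe set 1417562_at rose from 1105, 1351 and 1351 to 2369, 3148 and 2106, a log2 fold change of 0.99 (SE 0.18, limma adjusted p = 0.00463). The groups were well apart, and this call held without any 1 mouse but not without moderation (adjusted p = 0.0512). By contrast, the slightly brighter 1434976_x_at read 2684, 2837 and 2165 with NTBC and 2978, 2684 and 3769 without, with overlap and a log2 fold change of 0.29 (95% interval -0.11 to 0.69, limma adjusted p = 0.251). Its suffix marks probes shared with other sequences. With such probe sets left out, 1417562_at was the brightest of the gene and was higher (limma adjusted p = 0.00456). At 1417563_at, with 44.3 to 75.6 on all arrays, the change was -0.04 (-0.49 to 0.40, adjusted p = 0.891). Genes of the lacking lymphocytes read at such levels too, so 1417563_at cannot show that Eif4ebp1 was unchanged. The log2 ratio of 1434976_x_at over 1417562_at averaged 1.01 ± 0.30 in FRG+NTBC and 0.31 ± 0.54 in FRG-7dNTBC mice (SD, n = 3 each), with overlap (exact permutation p = 0.2, two-sided). Averaging the 3 probe sets gave 0.41 (limma adjusted p = 0.0325).

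Withdrawn mice did not follow a single order across the regulators. FRG-7dNTBC replicate 2 was the highest withdrawn mouse at 8 of the 21 probe sets and the lowest at 8, replicate 3 the highest at 9 and the lowest at 9, and replicate 1 the highest at 4 and the lowest at 4. Relative to the FRG+NTBC mean, replicate 2 had the largest log2 change of Eif2ak3 (1.78, against 0.70 in replicate 1 and 0.56 in replicate 3) and of Ddit3 (1.44, against 0.90 and 0.75). The same mouse had the lowest summed intensity of the withdrawn mice for macrophage markers (1644) and stellate cell markers (638), with Csf1r at 530 against 1370 in replicate 1 and 1978 in replicate 3, and Col3a1 at 156 against 1734 and 1924. The part of these differences in its Eif2ak3 and Ddit3 values was not tested. Replicate 2 was the lowest for Trib3 at 1456225_x_at (-0.88, against -0.56 and -0.24) and for Nupr1 at 1419666_x_at (-0.48, against -0.11 and 0.74).

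RefSeq's windows on GRCm38.p6, 250 bases before to 50 after a start site, were held for 9 of the 10 regulators (11 windows). They were searched on both strands for TGATGNAA, the core of the C/EBP-ATF response element (CARE) that ATF4 binds with C/EBP partners, for TGACGTCA, the cyclic AMP response element (CRE), for TGACNNNGC, the core of the antioxidant response element (ARE) of NRF2, and for the CCAAT box. None of the first 3 overlapped another at a regulator. The CARE core was found at Trib3 and Nupr1, against 3.97% of 32851 promoter windows, the CRE at Ppp1r15a (1.79% of windows), and the ARE core at Cebpb and Ppp1r15a (12.4%). The CCAAT box was found at 4 of the 9 regulators, Atf4, Ddit3, Eif2ak3 and Atf5, a share near the 37.4% of all windows. The 100 bases upstream of the start site are shown for 3 of the regulators that rose, with CCAAT boxes of either strand and the CRE in capitals:
Atf4, chr15:80255084-80255183, plus strand: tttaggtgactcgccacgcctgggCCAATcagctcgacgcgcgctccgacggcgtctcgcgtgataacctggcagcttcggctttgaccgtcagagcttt
Ddit3, chr10:127290693-127290792, plus strand: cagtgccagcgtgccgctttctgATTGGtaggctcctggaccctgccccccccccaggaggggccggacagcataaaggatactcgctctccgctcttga
Ppp1r15a, chr7:45526269-45526368, minus strand: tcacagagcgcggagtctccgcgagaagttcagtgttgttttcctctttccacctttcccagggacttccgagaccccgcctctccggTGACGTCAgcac
Such a match is a description of the window and not a binding site.

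Of the known targets of ATF4 more rose than fell, and most did not pass. Of 42 listed targets 41 were measured, and at their brightest probe sets 16 rose, 2 fell and 23 did not pass (median log2 fold change 0.48). Over all 18193 genes, 17.4% were higher and 12.7% lower (median -0.05). The falls numbered 5 after either other scaling and 4 with the mean over a gene's probe sets, but 1 with the replicate block, without probe sets of shared sequence, or on leaving out FRG+NTBC replicate 1, FRG+NTBC replicate 2, FRG-7dNTBC replicate 1 or FRG-7dNTBC replicate 2. The list was written from textbook targets with earlier results of these data known. Divided by function after their values were seen, 5 of 9 amino acid transporters were higher and none lower, with 4 not passing. Slc7a11, the cystine importer that is also an NRF2 target, read 16.1, 14.4 and 14.8 with NTBC and 1596, 1758 and 2006 without. The treated values lie below the lowest of Rag2, so its log2 fold change of 6.88 (SE 0.13, limma adjusted p = 5.75e-07) is not exact. The neutral amino acid carrier Slc1a4 went from 100.4, 92.4 and 97.0 to 2165, 1017 and 3083, with FRG-7dNTBC replicate 2 the lowest of the withdrawn mice. Slc3a2, the heavy chain that partners Slc7a11 and Slc7a5, rose by 2.81 on the log2 scale, Slc7a1 by 1.20 and Slc7a5 by 0.88.

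Among 10 enzymes of amino acid and one-carbon metabolism, 5 were higher and 1 was lower. Asns, which makes asparagine and is a standard readout of ATF4, read 129, 209 and 252 in FRG+NTBC mice and 714, 969 and 781 in FRG-7dNTBC mice. The groups were wide apart, with a log2 fold change of 2.10 (SE 0.25, limma adjusted p = 0.000702) and 2.27 at its other probe set. Of the serine synthesis enzymes, Psph rose by 2.84 (SE 0.23) and Psat1 by 2.81 (SE 0.44), and Phgdh, the entry enzyme, stood at -0.11 at its brightest probe set (limma adjusted p = 0.635). Of the 3 other probe sets of Phgdh, 1 rose by 1.72 (limma adjusted p = 0.0439), while the others stood at 1.91 (0.0563) and 0.20 (0.418). Cth and Pck2 rose by 1.06 and 0.69, and the mitochondrial serine enzyme Shmt2 fell by 1.12. Psat1 missed the threshold without moderation (adjusted p = 0.0587). Of 12 aminoacyl-tRNA synthetases, which charge tRNA with amino acids, Gars (1.57) and Eprs (0.70) were higher and 10 did not pass at their brightest probe sets. Among these 10, another probe set was higher for Nars (1.91, limma adjusted p = 0.000701), Iars (1.56, 0.00817) and Wars (0.88, 0.00925).

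Of the 10 stress and signaling targets, 4 were higher and 1 was lower. Atf3, a stress-induced repressor, went from 48.8, 22.6 and 24.8 to 458, 719 and 407, a log2 fold change of 4.09 (SE 0.32, limma adjusted p = 0.000136). Of its treated values 2 lie near those of Rag2, so that size is not exact. Ddit4, an inhibitor of mTORC1, rose by 2.40, the hormone Fgf21 by 2.75 and the disulfide oxidase Ero1a by 1.55. Chac1, a glutathione-degrading enzyme that ATF4 and CHOP switch on, read 239, 220 and 151 with NTBC and 97.0, 88.0 and 148 without. The groups all but touched, and the log2 fold change was -0.88 (SE 0.24, limma adjusted p = 0.0289). That call was lost without moderation (0.138) and with the replicate number as a block (0.0635). It was also lost on leaving out any 1 of FRG+NTBC replicates 1 and 2 and FRG-7dNTBC replicates 1 and 2 (0.0715 to 0.103). Sesn2, a stress sensor upstream of mTORC1, stood at 0.48 (limma adjusted p = 0.0531) with the groups not overlapping. It passed on the higher side with the mean over its probe sets (0.505, limma adjusted p = 0.0177) and among the brighter probe sets alone (0.0492). Without FRG-7dNTBC replicate 2 it passed too (0.592, limma adjusted p = 0.0327).

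**Figure D3:**
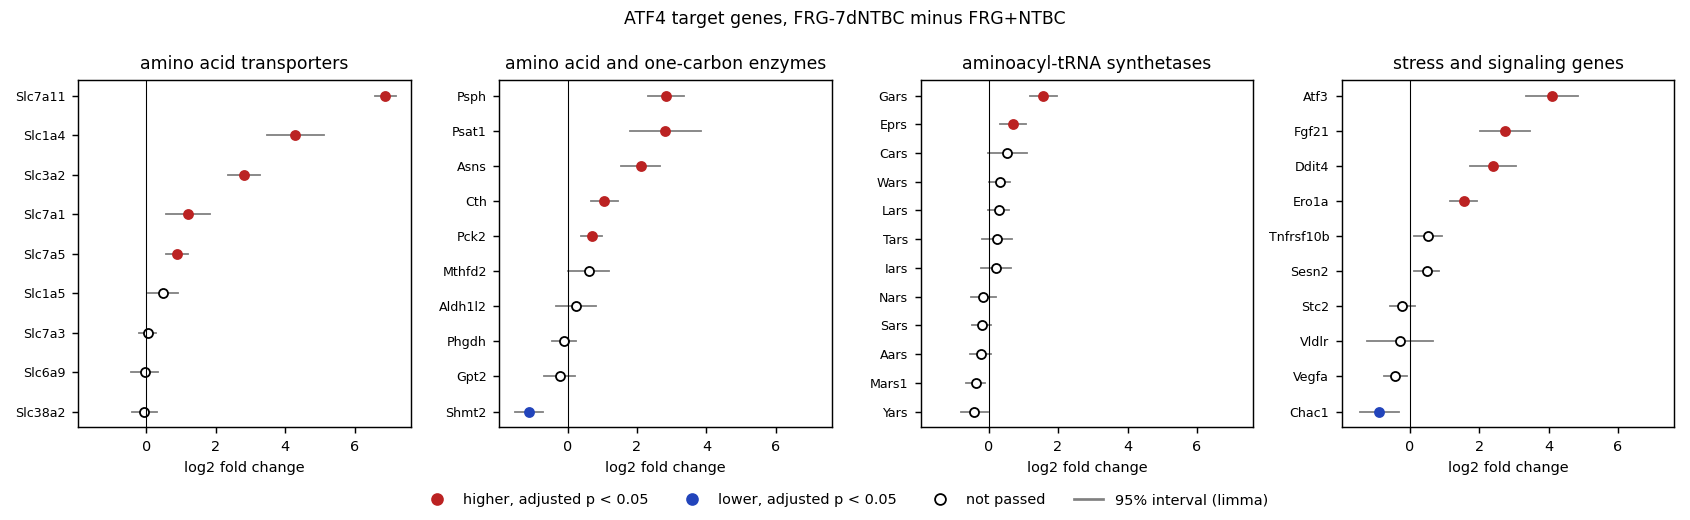
Log2 fold change (horizontal axis, FRG-7dNTBC minus FRG+NTBC) with its 95% interval for 41 measured ATF4 targets at their brightest probe sets, in 4 panels by function. Red points passed on the higher side (5, 5, 2 and 4 genes from left to right), blue points on the lower side (Shmt2 and Chac1), and most synthetases lie near 0.

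Among the 31 targets with a promoter window (37 windows), 13 held the CARE core in at least 1 window, while 3.97% of all windows held it. The list was written from known targets of ATF4, which binds this element, so the higher share is no test. Targets with it included 7 that were higher (Asns, Atf3, Fgf21, Gars, Pck2, Slc1a4 and Slc7a11), 1 that was lower (Chac1) and 5 that did not pass (median log2 fold change 0.69). The 18 without it had 7 higher and 1 lower, with a median of 0.22. Trib3 and Nupr1, the regulators with the core, did not pass. The sites are shown in the direction of the gene with 10 bases on either side and the core in capitals, read as TGATGNAA on one strand or the other, to let the regulators be set beside listed targets that rose and the listed target that fell:
Trib3, chr2:152344029-152344056: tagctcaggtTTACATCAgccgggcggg
Nupr1, chr7:126625563-126625590: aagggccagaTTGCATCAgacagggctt
Chac1, chr2:119351039-119351066: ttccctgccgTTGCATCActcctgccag
Asns, chr6:7693215-7693242: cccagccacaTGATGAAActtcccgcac
Slc7a11, chr3:50443662-50443689: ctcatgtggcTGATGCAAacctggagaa
Slc7a11, second site, chr3:50443643-50443670: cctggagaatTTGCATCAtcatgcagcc
Slc1a4, chr11:20332700-20332727: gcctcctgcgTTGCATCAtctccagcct
Atf3, chr1:191183426-191183453: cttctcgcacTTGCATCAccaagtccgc
Fgf21, chr7:45615612-45615639: gacccccccaTTGCATCAtccgtccagg
Nupr1, Chac1, Slc1a4, Atf3, Fgf21 and the second site of Slc7a11 hold the same 8 letters, TTGCATCA, although Chac1 was lower, Nupr1 did not pass and the others were higher. The targets Vldlr, Aars, Iars and Tars, which did not pass, hold those letters too, and so does the window of Herpud1, a gene of another list that fell. On the other strand the same letters read TGATGCAA, as at the first site of Slc7a11 and at Yars, a target that did not pass.

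The machinery around eIF2 was partly higher. Of 19 measured genes of 20 listed, 9 rose, 1 fell and 9 did not pass (median log2 fold change 0.27). Of all genes, 17.4% were higher and 12.7% lower. The higher genes numbered 5 without FRG+NTBC replicate 2 and 4 without moderation, and the lower ones 2 after either other scaling and 0 with the mean over probe sets. Impact, a protein that restrains GCN2, read 208, 215 and 212 with NTBC and 729, 1038 and 653 without, a log2 fold change of 1.90 (SE 0.18, limma adjusted p = 0.000281), while 1 of its 3 probe sets passed. Gcn1, the activator of GCN2, fell by 0.89. The subunit gene Eif2s3x rose by 1.07 at its brightest and was higher at all 3 of its probe sets. Eif2b3, of the exchange factor eIF2B on which phosphorylated eIF2 acts, rose by 1.31, with Eif2b1 (0.91) and Eif2b4 (0.52) also higher. Dnajc3, an inhibitor of PERK, rose by 1.01 at 1 of 5 probe sets, and the adaptor Nck1 by 0.94, although another of its probe sets fell by 0.53. Averaged over their probe sets neither passed (adjusted p = 0.517 and 0.133 from limma). The other eIF2 alpha kinases did not pass at their brightest probe sets, with Eif2ak1 at -0.25 (limma adjusted p = 0.425) and Eif2ak2 at -0.39 (0.0871). Eif2ak2 passed on the lower side after scaling to one 75th percentile (limma adjusted p = 0.0361) and after a further quantile normalization (0.0327). Ppp1r15b, the constitutive partner of the eIF2 alpha phosphatase, stood at 0.20 (limma adjusted p = 0.453).

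Among 17 bZIP partners and relatives, 7 were higher and 1 was lower, with a median of 0.29, beside 17.4% higher and 12.7% lower of all genes. The lower genes numbered 2 after either other scaling, with the mean over probe sets and without FRG+NTBC replicate 1. Besides Atf3, the higher genes were Jun (log2 fold change 2.20), Cebpd (1.96), Fosl1 (1.83, from treated values near those of Rag2), Nfe2l2 (1.66), Fos (1.64) and Jdp2 (0.70). The hepatocyte factor Cebpa, a relative of Cebpb, fell by 1.07 (SE 0.15, limma adjusted p = 0.00149), and Cebpg, a dimer partner of ATF4, stood at -0.20 (adjusted p = 0.438). Of the relatives of Trib3, Trib1 stood at -0.04 (adjusted p = 0.889) and Trib2 rose by 0.55, from 14.2 ± 2.09 to 20.6 ± 1.75 (SD, n = 3 mice per group), no higher than Rag2. The call of Trib2 was lost without any 1 mouse except FRG+NTBC replicate 3 or FRG-7dNTBC replicate 3 (limma adjusted p-values 0.0718 to 0.0897). It was also lost after scaling to one 75th percentile (0.0514), without moderation (0.0851), with the replicate block (0.0583) and with the mean over its probe sets (0.399).

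The remaining arms of the unfolded protein response, ATF6 and IRE1 with their targets, were higher for 8 of 20 genes and lower for 2 (median 0.43). The shares over all genes were 17.4% higher and 12.7% lower. The higher genes numbered 4 without FRG+NTBC replicate 2, 5 without FRG-7dNTBC replicate 1 and 3 without moderation, and 1 was lower without moderation or with the mean over probe sets. Dnajb9, a chaperone induced by IRE1 and XBP1, rose by 1.89 (SE 0.18), Sdf2l1 by 1.07 and Edem1 by 1.04, and Hspa5 was also higher (limma adjusted p = 0.00982). Herpud1, a degradation factor that ATF4 also switches on, went from 2385, 3104 and 2817 to 576, 1520 and 560, a log2 fold change of -1.80 (SE 0.36, limma adjusted p = 0.00748), and both its probe sets fell. Sel1l, of the same degradation machinery, fell by 0.99 at 1 of its 5 probe sets, while the others stood between -0.14 and 0.47. Xbp1, the factor that IRE1 activates, stood at -0.60 at its brightest probe set (limma adjusted p = 0.0785), which passed after scaling to one 75th percentile (0.0414) and without FRG-7dNTBC replicate 3 (0.00788), and it was lower at 1 of its 3 others (-0.70, 0.0305). Without moderation the changes of Hspa5, Sdf2l1 and Herpud1 missed the threshold (adjusted p = 0.082, 0.12 and 0.0889), and that of Sdf2l1 also without FRG+NTBC replicate 2 (0.058).

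Around 4E-BP1 and mTORC1, 3 of 12 measured genes were higher and 4 lower (median -0.22), the latter falling to 2 without moderation. Eif4e, the cap-binding protein that 4E-BP1 holds, rose from 221, 315 and 377 to 1409, 1783 and 1105, a log2 fold change of 2.24 (SE 0.24, limma adjusted p = 0.000454), and all 4 of its probe sets were higher. Eif4ebp2, the relative of Eif4ebp1, fell by 0.51 (limma adjusted p = 0.0292). That call was lost without moderation, with the replicate block (0.0694) and on leaving out any 1 mouse other than FRG+NTBC replicate 1 or FRG-7dNTBC replicate 3. Rheb, the activator of mTORC1, rose by 1.67. The mTORC1 component Akt1s1 rose by 0.78, a call that was lost without any 1 mouse except FRG-7dNTBC replicate 3 (limma adjusted p-values 0.0927 to 0.138), after both other scalings (0.052 and 0.0865) and without moderation (0.159). The mTOR inhibitor Deptor fell by 1.71, Sesn1 by 1.13 and Tsc1, of the complex that restrains Rheb, by 0.74. Over all 110 measured genes of the 6 lists, 43 were higher and 10 lower, and 36 and 18 after scaling to one 75th percentile. In the main analysis 17.4% of all genes were higher and 12.7% lower.

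**Figure D4:**
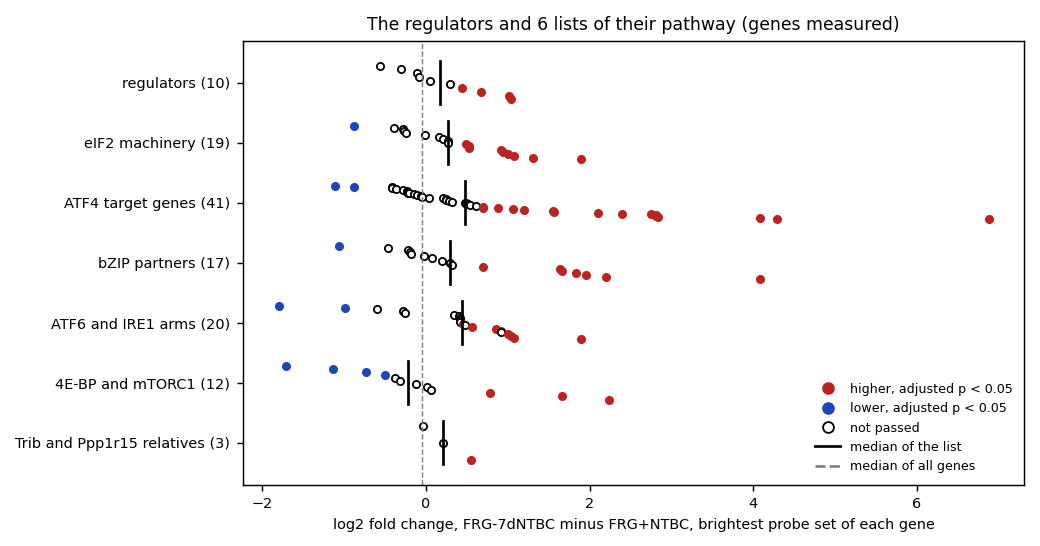
Log2 fold change (horizontal axis, FRG-7dNTBC minus FRG+NTBC) of each gene at its brightest probe set for the 10 regulators and the 6 lists, 1 point per gene, with the list's median as a black line and the median of all genes, -0.05, as a dashed line. The regulators lie between -0.56 and 1.03, whereas the ATF4 targets reach 6.88.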

How the data were processed

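RNA of 6 livers was hybridised to Affymetrix mouse expression arrays, 3 per group, and mice were grouped by GEO's labels. The authors deposited intensity values from Robust Multiarray Analysis, that is, after background correction, quantile normalization and median polish. The software named in the submitters' notes is the Transcriptome Analysis Console. All 270222 values equal 2 raised to a number with 2 decimals (tolerance 0.006), so differences are resolved to 0.01 on the log2 scale. Log2 values were fitted with limma 3.58.1 under R 4.3.3 (lmFit, eBayes) without covariates, with Benjamini-Hochberg adjustment over all 45037 probe sets and a threshold of 0.05, and the code was first tested on simulated data. Probe sets were named from GEO's annotation of the array where it gives 1 gene, with symbols updated to RefSeq, and the probe set of highest mean log2 intensity stood for a gene. Members, lists and tests were chosen with earlier results of these data known. By rule the text names all members, up to 5 called genes per list with the largest change, and a set of well-known genes whatever their values. Other genes (Slc3a2, Slc7a1, Slc7a5, Phgdh, Cth, Pck2, Shmt2, Gars, Eprs, Ero1a, Gcn1, Eif2b1, Eif2b4, Fos, Jdp2, Sel1l, Tsc1, and markers) were named after their values were seen. Eif2s1, Gdf15, Atf1, Eif4ebp3, Eif4g1 and Rps6kb1, which no probe set names alone, were not analysed here. Precision is limited by 3 arrays per group. Alternatives tried were arrays scaled to the same 75th percentile, a second quantile normalization, dim probe sets left out, robust moderation along an intensity trend, no moderation at all, probe sets of shared sequence left out, the mean over a gene's probe sets, a replicate block and each mouse left out. Replicates are separate animals.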

Additional observations from a re-analysis of the deposited data

How the results depend on the processing

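Calls near the threshold turned with single mice, with the scaling and with moderation. Higher probe sets of the regulators numbered 5 in the main analysis, 3 after scaling to one 75th percentile, 2 after a further quantile normalization, 1 without moderation, 2 at 2-fold or more, and 2 to 5 with 1 mouse left out. Lower ones numbered 1, but 2 after either scaling, 0 at 2-fold or more, and 1 to 2 with 1 mouse left out. At the brightest probe sets 4 regulators were higher, with 2 after scaling to one 75th percentile, 1 after quantile normalization, 1 without moderation and 1 to 4 with 1 mouse left out. With probe sets of shared sequence left out, the brightest of Eif4ebp1 was 1417562_at, which was higher. No regulator was lower at its brightest probe set in the main analysis, but 1, Trib3, was after either scaling and among the brighter probe sets alone. With the mean of a gene's probe sets 1 was lower too, but it was Eif2ak4 (-0.425, limma adjusted p = 0.0173). Trib3 did not pass with that mean (-0.345, limma adjusted p = 0.13). With 1 mouse left out, 0 to 1 regulators were lower. Genes of the pathway lists that were higher numbered 43, with 26 without moderation and 30 to 42 with 1 mouse left out. Those lower numbered 10, with 18 after scaling to one 75th percentile, 17 after quantile normalization and 8 to 11 with 1 mouse left out. The cause of these shifts was not tested. The sign turned, with the threshold missed on both sides, for these log2 fold changes. After scaling to one 75th percentile they were Atf4 1438992_x_at (-0.097), Ddit3 1443897_at (-0.123), Cebpb 1427844_a_at (-0.003) and Nupr1 1419666_x_at (-0.077). After quantile normalization they were Atf4 1438992_x_at (-0.147) and Cebpb 1427844_a_at (-0.057). With the mean over probe sets they were Cebpb (0.007), Eif2ak2 (0.096) and Trib1 (0.068). With 1 mouse left out, the range crossed 0 for Eif2ak4 1421389_a_at (-0.168 to 0.012), Atf4 1438992_x_at (-0.180 to 0.165), Ddit3 1443897_at (-0.057 to 0.108), Nupr1 1419666_x_at (-0.292 to 0.318), Trib3 1426065_a_at (-0.283 to 0.057), Eif4ebp1 1417563_at (-0.235 to 0.150) and Trib1 (-0.195 to 0.110).

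Equal replicate numbers of the groups do not mark a shared litter or day in the labels, and deviations of same-numbered mice from their group means correlated at 0.106, 0.034 and -0.156 over 45037 probe sets. With the replicate number as a block, 3 probe sets of the regulators were higher and 1 lower, and 2 regulators were higher at their brightest probe set, the calls of Eif2ak3 and Atf4 being lost.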
